A study of Homo sapiens with 8 samples.

Results

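The early response to hypoxia of 10 genes that encode cytosolic heat shock proteins and their co-chaperones was examined in nascent transcription data from HCT116 cells, a human colorectal carcinoma cell line. The genes were *HSPA1A*, *HSPA1B*, *HSPA8*, *HSPH1*, *HSP90AA1*, *HSP90AB1*, *DNAJB1*, *BAG3*, *AHSA1* and *CHORDC1*, 10 of the 23193 genes counted, found by symbol in both count tables. They were chosen by name after gene-level differences between hypoxia and normoxia had been seen in these same libraries. Their hypoxia differences are therefore a description, and the adjusted p-values printed with them show only on which side of the threshold a gene fell among all genes tested.

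PRO-seq (precision run-on sequencing) extends the RNA of engaged polymerases with a biotin-labelled nucleotide in isolated nuclei, so its reads count polymerases at work rather than mature mRNA. WT cells and HIF1A-/- cells, in which exons of the gene for the hypoxia-inducible factor HIF1A were disrupted by homologous recombination, were each kept in normoxia with DMSO or exposed to 1% O2 for 90 min with DMSO, the vehicle that all groups share. Each group holds 2 libraries, 8 together, made from independent preparations of nuclei, each from several pooled plates. Whether the HIF1A-/- cells are 1 clone is not given in the sources used here, so a difference between the genotypes cannot be told apart from one between 2 cell populations.

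Reads were counted in a region around the transcription start site (TSS), from 50 bp upstream to 500 bp downstream, and in the gene body, from about 1 kb downstream to the end of the gene. Library totals ran from 18125234 to 23622392 reads in gene bodies and from 2783581 to 5966348 reads in TSS regions. Levels are given as CPM, each count scaled to the library total of the same table. *HIF1A* itself had between 129 and 172 CPM in its gene body in all libraries, which does not check the genotype, since a deletion of exon sequence leaves the rest of the gene to be transcribed. Of the markers used to check the cells, the 6 of colorectal epithelium summed to between 838 and 1210 CPM, those of fibroblasts to at most 58.2, of endothelium to at most 28 and of blood cells to at most 13.4.

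HSP70 proteins bind unfolded stretches of other proteins and release them in a cycle driven by ATP, which J-domain proteins such as DNAJB1 start and nucleotide exchange factors such as HSPH1 and BAG3 complete. HSP90 takes over partly folded clients such as kinases and steroid receptors, and co-chaperones such as AHSA1 set the pace of its ATPase. Most of these genes are known targets of heat shock factor 1 (HSF1), which binds inverted repeats of the letters GAA, the heat shock element, and their promoters carry paused polymerase that can be released within minutes of stress. HIF1A instead binds the hypoxia response element, and ACGTG is a form of its core.

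The upstream bases of 4 of the genes are shown because they bear on what was counted. *HSPA1A* and *HSPA1B* are near-identical copies on chromosome 6, and for *HSP90AA1* and *DNAJB1* the main promoter lies inside the region counted as gene body. The sequences are those of RefSeq (GRCh38.p14), placed in GRCh37, the build of the count tables, by exact match. Each runs 5′ to 3′ on the gene's strand from base -150 to base -31 before the annotated main start, with matches to GAANNTTC or TTCNNGAA in capitals. They lie at chr6:31783170-31783289 (plus strand), chr6:31795365-31795484 (plus strand), chr14:102553412-102553531 (minus strand) and chr19:14629240-14629359 (minus strand).
HSPA1A: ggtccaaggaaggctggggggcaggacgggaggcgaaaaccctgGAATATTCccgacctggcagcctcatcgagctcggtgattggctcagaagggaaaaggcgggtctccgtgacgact
HSPA1B: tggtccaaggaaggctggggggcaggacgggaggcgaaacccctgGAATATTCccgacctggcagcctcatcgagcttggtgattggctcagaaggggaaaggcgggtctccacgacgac
HSP90AA1: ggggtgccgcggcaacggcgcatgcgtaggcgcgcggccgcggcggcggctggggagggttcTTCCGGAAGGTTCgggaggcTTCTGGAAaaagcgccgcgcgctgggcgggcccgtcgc
DNAJB1: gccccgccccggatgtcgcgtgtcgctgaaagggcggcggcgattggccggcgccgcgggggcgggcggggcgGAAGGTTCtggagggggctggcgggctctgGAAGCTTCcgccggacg

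The *HSPA1A* and *HSPA1B* stretches shared 114 of 119 letters (95.8%) when set against each other with an offset of 1 base, and both carried GAATATTC, starting 106 and 105 bases before the start. In *HSP90AA1* the letters TTCCGGAAGGTTC held both motifs overlapping, with TTCTGGAA further downstream at -68, and *DNAJB1* had GAAGGTTC at -77 and GAAGCTTC at -47. Among the windows of 300 bases around annotated starts (250 before and 50 after), 1 or both of these 8-letter motifs were found for 7 of the 10 genes, the others being *HSPH1*, *BAG3* and *AHSA1*, against 16.2% of all 27305 genes in the table. The match in *HSP90AB1* was at a start 842 bp downstream of the main one, and the *HSPH1* window in the table belongs to a start upstream of its main one. ACGTG, on either strand, was in a window of *HSP90AB1* and of *AHSA1*, against 24.9% of all genes. Other forms of the hypoxia response element core were not searched for. Such matches describe the letters only.

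The copies limit what can be said of the inducible HSP70 pair. Only 29.67% of all windows of 75 bases, the read length, in the *HSPA1A* gene body occur once in the genome, and 35.96% in that of *HSPA1B*, while at least 97.03% do in the gene bodies of the other 8 genes. Reads that fit both copies get a low mapping quality and the tables hold only alignments above a quality of 10, so the levels of this pair are uncertain. For *HSP90AA1* the counted TSS is an alternative start 52705 bp upstream of the main one, and for *DNAJB1* it is 10925 bp upstream. Their TSS and pausing values therefore do not cover the main promoter, and their gene body counts include it. For the other 8 genes the main start lay 4 to 315 bp downstream of the counted TSS and within the TSS region. Some of them have further annotated starts outside it. A start of *HSP90AB1* lay 986 bp downstream of the counted TSS, between the TSS region and the gene body. Inside the counted body lay 5 starts of coding transcripts of *HSPA8*, 2 each of *AHSA1* and *CHORDC1*, and 1 each of *HSPH1* and *BAG3*. The use of these starts was not tested.

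Per counted length, the densities of *HSPA8* and *HSP90AB1* were highest. In WT normoxia the gene body density, as RPKM (CPM per kilobase, mean ± SD, n = 2), was 153.5 ± 57.7 for *HSPA8*, the constitutive HSP70, and 56.3 ± 14.3 for *HSP90AB1*, the constitutive HSP90. *HSPA1B*, a stress-inducible HSP70, followed at 16.8 ± 10.9, then *DNAJB1* at 14.7 ± 5.31, *HSPH1* at 8.90 ± 5.19, *HSP90AA1*, the inducible HSP90, at 7.93 ± 2.62, *BAG3* at 6.56 ± 3.09, *AHSA1* at 6.38 ± 2.52 and *CHORDC1* at 4.64 ± 2.19. From *HSPA1B* down to *CHORDC1* the libraries of neighbours in this order overlapped. The counted bodies of *HSP90AA1* and *DNAJB1*, 58012 and 13559 bp long, begin far upstream of the main promoter. Their reads are thus divided by more than the length of the main gene, and their places in this order are uncertain. No ranking of constitutive against inducible genes is drawn from it. *HSPA1A* was lowest at 0.647 ± 0.424. The first 9 of these densities exceeded those of 87.1% to 99.9% of the 16686 gene bodies tested, and that of *HSPA1A* exceeded 33.7%.

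In gene bodies the mean of the 10 genes, each taken alone, was lower in hypoxia than in normoxia in both genotypes, and the 2 groups of libraries overlapped for 9 of the 10 in WT cells and for 3 in HIF1A-/- cells. A lower level in such bulk samples can come from fewer transcribing cells or from fewer polymerases per cell, which cannot be told apart. The difference of *HSPH1*, whose protein recharges HSP70 with ATP, was largest of the 10 in HIF1A-/- cells and among the largest 3 in WT cells. Its gene body had 327 and 136 CPM in WT normoxia (replicates 1 and 2) and 141 and 50.4 CPM in WT hypoxia, so replicate 1 in hypoxia stood level with replicate 2 in normoxia. In HIF1A-/- cells it had 318 and 222 CPM in normoxia and 120.4 and 87.6 CPM in hypoxia, with no overlap. The log2 fold change was -1.31 ± 0.55 (SE) in WT cells and -1.42 ± 0.55 in HIF1A-/- cells.

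**Figure D1:**
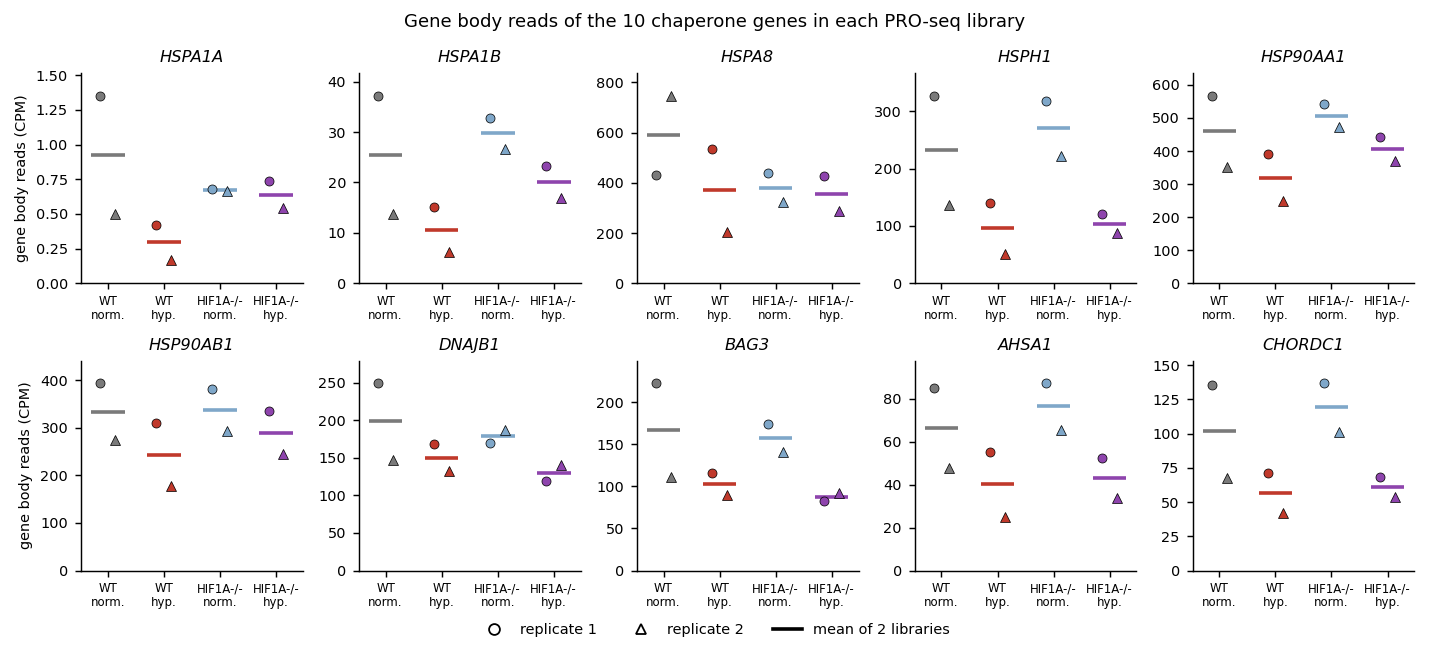
Gene body reads of each gene (CPM, linear axis from 0, a scale of its own per gene) in the 8 libraries. Circles are replicate 1, triangles replicate 2 and lines the mean of the 2 libraries of a group. Replicate 1 stands above replicate 2 in most groups, and the hypoxia means lie below the normoxia means for each gene.

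Among the HSP70 genes the values were less even. *HSPA1B* had 37.2 and 13.8 CPM in normoxia and 15.1 and 6.14 CPM in hypoxia in WT cells, and 32.9 and 26.7 against 23.3 and 16.9 CPM in HIF1A-/- cells, with log2 fold changes of -1.30 ± 0.55 and -0.61 ± 0.53. The replicates overlapped in WT cells and not in HIF1A-/- cells. *HSPA1A* rested on few reads, 28 and 9 in normoxia and 8 and 4 in hypoxia in WT cells, and 15 and 14 against 15 and 11 in HIF1A-/- cells. Its log2 fold change was -1.71 ± 0.70 in WT cells, where the groups did not overlap, and -0.11 ± 0.66 in HIF1A-/- cells, where the levels of 0.682 and 0.662 CPM in normoxia lay between the 0.738 and 0.543 CPM of hypoxia. With the reads of both copies summed, the changes were -1.32 ± 0.55 and -0.59 ± 0.53. Nearly all reads in this sum were those of *HSPA1B*, and reads of low mapping quality stayed left out of it. *HSPA8*, the constitutive member, had 433 and 747 CPM in normoxia and 537 and 204 CPM in hypoxia in WT cells, and 441 and 322 against 427 and 287 CPM in HIF1A-/- cells. It was the only gene whose WT replicates went opposite ways, higher in hypoxia in replicate 1 and lower in replicate 2, and its log2 fold changes were -0.69 ± 0.47 and -0.13 ± 0.47.

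In WT cells the HSP90 genes had smaller differences than the HSP70 genes, while in HIF1A-/- cells theirs lay between that of *HSPA1B* and those of *HSPA1A* and *HSPA8*. The *HSP90AA1* gene body had 567 and 352 CPM in normoxia and 389.5 and 248 CPM in hypoxia in WT cells, and 543 and 471 against 443 and 369.7 CPM in HIF1A-/- cells. Hypoxia and normoxia overlapped in WT cells and did not in HIF1A-/- cells, with log2 fold changes of -0.56 ± 0.30 and -0.36 ± 0.30. *HSP90AB1* had 394 and 274 CPM in normoxia and 310.3 and 177 CPM in hypoxia in WT cells, and 382 and 292 against 335 and 244 CPM in HIF1A-/- cells, overlapping in both genotypes, with log2 fold changes of -0.49 ± 0.33 and -0.26 ± 0.33.

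The co-chaperones of HSP70 had lower means in hypoxia in both genotypes. *DNAJB1*, which delivers substrates to HSP70, had 249.6 and 148 CPM in normoxia and 168 and 132 CPM in hypoxia in WT cells, and 170.4 and 187 against 119 and 141 CPM in HIF1A-/- cells. *BAG3*, which links HSP70 to selective autophagy, had 223 and 111 CPM in normoxia and 115 and 90.04 CPM in hypoxia in WT cells, and 174 and 141 against 82.2 and 91.5 CPM in HIF1A-/- cells. For both genes the WT groups overlapped and the HIF1A-/- groups did not. The log2 fold changes were -0.44 ± 0.25 and -0.50 ± 0.25 for *DNAJB1* and -0.74 ± 0.32 and -0.91 ± 0.32 for *BAG3*, in WT and HIF1A-/- cells.

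The means of the HSP90 co-chaperones were also lower in hypoxia in both genotypes. *AHSA1*, the activator of the HSP90 ATPase, had 85.2 and 48.0 CPM in normoxia and 55.3 and 25.1 CPM in hypoxia in WT cells, and 87.4 and 65.6 against 52.6 and 33.6 CPM in HIF1A-/- cells. *CHORDC1*, whose protein binds HSP90 through its CHORD domains, had 136 and 67.8 CPM in normoxia and 71.1 and 41.95 CPM in hypoxia in WT cells, and 137 and 101 against 68.2 and 54.1 CPM in HIF1A-/- cells. Again the groups overlapped in WT cells only. The log2 fold changes in WT and HIF1A-/- cells were -0.76 ± 0.45 and -0.87 ± 0.45 for *AHSA1* and -0.88 ± 0.39 and -1.01 ± 0.39 for *CHORDC1*.

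None of the 10 gene bodies passed an FDR of 10% in either genotype by edgeR's quasi-likelihood test without a replicate term (adjusted p = 0.897 in WT and 1 in HIF1A-/- cells for each), nor by DESeq2. At an unadjusted p under 0.05 there were 4 in WT and 3 in HIF1A-/- cells by edgeR, and 3 and 4 by DESeq2, all lower. Lower at that p among all gene bodies were 184 and 172 by edgeR, and 191 and 185 by DESeq2. Of all 16686 gene bodies tested, edgeR called 0% lower in WT and 0% in HIF1A-/- cells, and DESeq2 0.00599% and 0.036%. The median log2 fold change of the 10 genes was -0.75 in WT and -0.55 in HIF1A-/- cells, beside -0.018 and 0.00090 over all gene bodies. Both hypoxia libraries lay below both normoxia libraries for 1 gene in WT cells (19.4% of all gene bodies did so) and for 7 in HIF1A-/- cells (11.3%). Without WT normoxia replicate 1 the WT median was -0.27, and without WT hypoxia replicate 1 it was -1.39.

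The spread within groups followed the replicate number, which marks samples that deviate together in these data. With a replicate term in the fit, replicate 2 was lower than replicate 1 for all 10 gene bodies, by a median of -0.66 on the log2 scale, and 8 of them passed an FDR of 10% in that comparison, as did 22.6% of all gene bodies. The oxygen difference within a replicate number was steadier: 8 of the 10 genes were lower in hypoxia in all 4 replicate pairs (21% of all gene bodies), the exceptions being *HSPA8* and *HSPA1A*, each lower in 3. The median of the 10 genes was -0.80 and -0.69 in the WT pairs and -0.55 in both HIF1A-/- pairs.

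**Figure D2:**
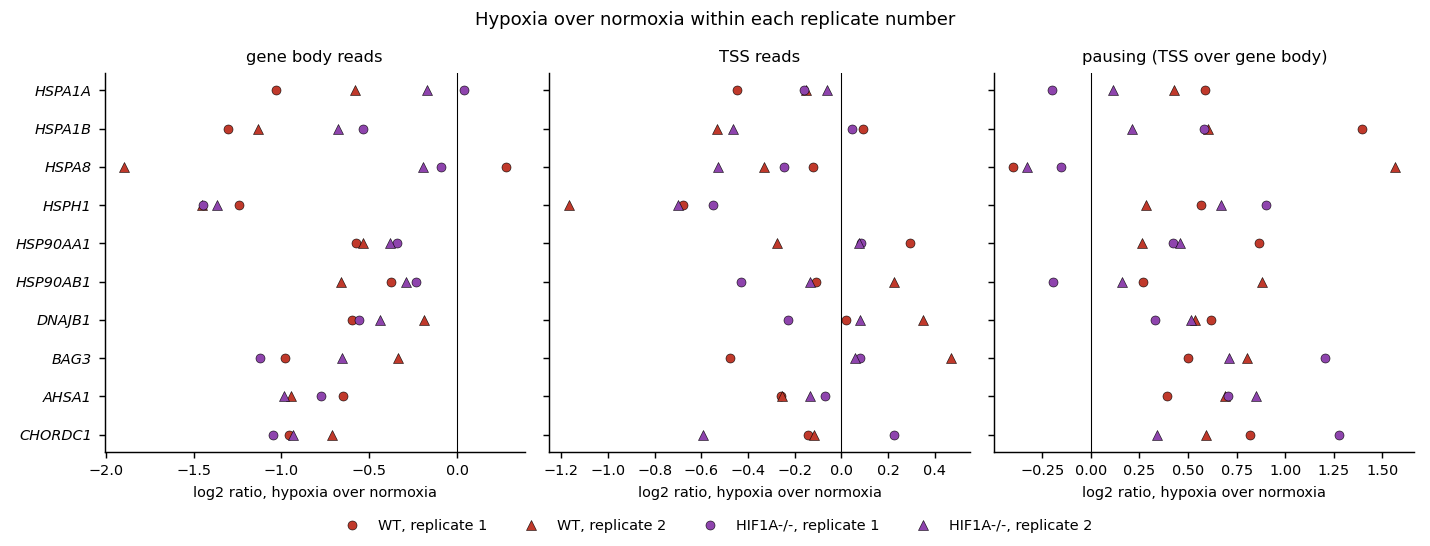
Log2 ratio of hypoxia over normoxia within each replicate number, from TMM-scaled CPM, for gene body reads, TSS reads and their ratio (pausing). Red symbols are WT cells and purple ones HIF1A-/- cells, circles replicate 1 and triangles replicate 2. Gene body ratios lie left of 0 except 1 for *HSPA8* and 1 for *HSPA1A*, TSS ratios lie around 0 except for *HSPH1*, and pausing ratios lie mostly right of 0.

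With the replicate term, 6 of the 10 gene bodies passed in WT cells, all lower in hypoxia, beside 1.77% of all gene bodies called lower. They were *HSPH1* (-1.34 ± 0.22, adjusted p = 0.0226), *CHORDC1* (-0.85 ± 0.14, 0.0232), *AHSA1* (-0.79 ± 0.14, 0.0335), *HSP90AB1* (-0.51 ± 0.10, 0.0455), *HSPA1B* (-1.28 ± 0.26, 0.0533) and *HSP90AA1* (-0.56 ± 0.12, 0.0604). *BAG3* and *HSPA1A* had an adjusted p of 0.125, and *DNAJB1* and *HSPA8* of 0.266. In HIF1A-/- cells none passed, beside 0.00599% of all gene bodies. The lowest adjusted p there was 0.114, for *CHORDC1* (-0.99 ± 0.14). An unadjusted p under 0.05 was reached by 8 of the 10, all lower, beside 685 of all 16686 gene bodies. DESeq2 with the replicate term called 7 in WT cells (2.13% of all gene bodies), the same 6 and *BAG3*, and 4 in HIF1A-/- cells (0.587%), *AHSA1*, *BAG3*, *CHORDC1* and *HSPH1*. Since the genes were picked on differences of this kind, nothing is read from these counts.

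**Figure D3:**
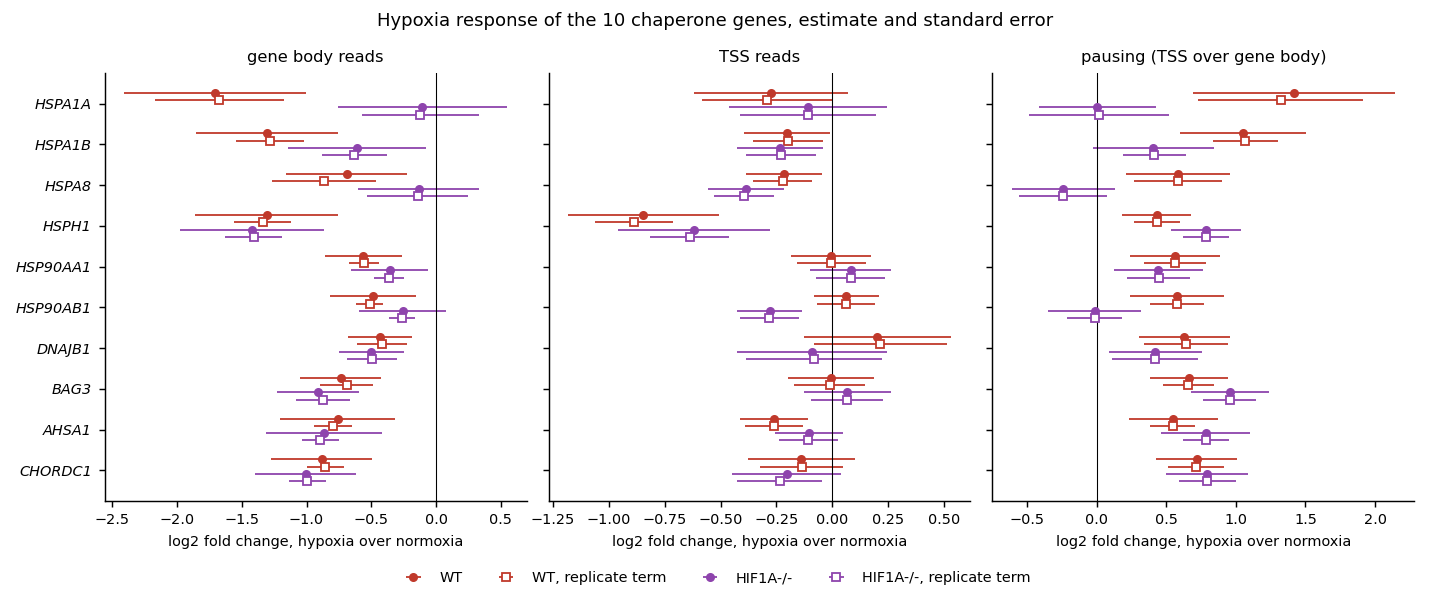
Log2 fold change of hypoxia over normoxia with its standard error (bars) for each gene, in gene body reads, TSS reads and pausing. Filled circles are estimates without a replicate term and open squares with one, red for WT and purple for HIF1A-/- cells. Gene body estimates lie below 0 in both genotypes and their standard errors shrink with the replicate term, while TSS estimates lie within 0.4 of 0 except those of *HSPH1*.

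At the TSS the 10 genes differed little between hypoxia and normoxia. The median log2 fold change was -0.17 in WT and -0.16 in HIF1A-/- cells, beside -0.015 and -0.0066 over the 15212 TSS regions tested, and 8 of 10 values were below 0 in each genotype. No TSS region of the 10 passed without the replicate term (0% of all called lower in WT and 0% in HIF1A-/- cells by edgeR). In each genotype 1 of the 10 was lower at an unadjusted p under 0.05, beside 240 in WT and 58 in HIF1A-/- cells among all TSS regions. *HSPH1* stood apart: its TSS had 360.004 and 203 CPM in normoxia and 221 and 87.7 CPM in hypoxia in WT cells, and 289 and 265 against 199 and 163 CPM in HIF1A-/- cells. Hypoxia and normoxia overlapped in WT cells by replicate 1 of the former and replicate 2 of the latter, and did not in HIF1A-/- cells. Its log2 fold change was -0.85 ± 0.34 in WT and -0.62 ± 0.34 in HIF1A-/- cells, and with the replicate term -0.89 ± 0.18 (adjusted p = 0.0145) and -0.64 ± 0.18 (adjusted p = 1).

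That WT call for *HSPH1*, by edgeR, was the only one among the 10 with the replicate term, beside 0.217% of all TSS regions called lower in WT and 0% in HIF1A-/- cells. DESeq2 with the term called none of the 10 at the TSS in either genotype. Among all 15212 TSS regions it called 9 lower in WT cells. *HSPA1B*, with the strongest TSS signal of the 10, had 968 and 1051 CPM in normoxia and 1017 and 707 CPM in hypoxia in WT cells, and 733 and 1061 against 763 and 767 CPM in HIF1A-/- cells. The oxygen groups overlapped in both genotypes, with log2 fold changes of -0.20 ± 0.19 and -0.23 ± 0.19. In *HSPA8* they were -0.22 ± 0.17 and -0.38 ± 0.17, and in *HSP90AB1* 0.06 ± 0.14 and -0.28 ± 0.15. All 4 replicate pairs were lower in hypoxia for 4 of the 10 TSS regions, *HSPA1A*, *HSPA8*, *HSPH1* and *AHSA1* (10.1% of all). Both hypoxia libraries lay below both normoxia libraries for 0 of the 10 in WT cells (17.5% of all TSS regions) and for 4 in HIF1A-/- cells (11.5%), *HSPA8*, *HSPH1*, *HSP90AB1* and *AHSA1*.

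The pausing index is the read density of the TSS region over that of the gene body, each in CPM per base. In WT normoxia it ran from 1.62 for *DNAJB1* to 141 for *HSPA1B* (means of 2 libraries), with 61.2 for *HSPH1*, 57.7 for *AHSA1*, 53.0 for *HSPA1A*, 40.9 for *BAG3*, 33.4 for *CHORDC1*, 26.1 for *HSP90AA1*, 11.1 for *HSP90AB1* and 8.33 for *HSPA8*. The median of 14492 genes was 48.3. *HSPA1B* thus lay above 82.6% of these genes, its copy *HSPA1A* above 52.7%, and the constitutive *HSP90AB1* and *HSPA8* above 18% and 13.8%. In *HSPA1B*, 54.72% of the windows of 75 bases in the TSS region occur once in the genome, against 35.96% in the gene body. In *HSPA1A* these shares were 60.38% and 29.67%, so the index of this pair is uncertain. The values of *HSP90AA1*, above 33.4%, and of *DNAJB1*, above 2.27%, come from the alternative starts described above. For *HSP90AB1*, *HSPA8* and others, polymerases paused at further starts outside the TSS region would count toward the gene body, which was not tested.

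In hypoxia the estimated change of the index was above 0 for all 10 genes in WT cells and for 8 in HIF1A-/- cells, that of *HSPA1A* there being 0.0026. *HSPA1B* had an index of 71.8 and 210.1 in normoxia and 186 and 318 in hypoxia in WT cells, and 61.5 and 109.5 against 90.2 and 125 in HIF1A-/- cells. *HSPH1* had 52.0 and 70.4 in normoxia and 74.3 and 82.2 in hypoxia in WT cells, and 42.9 and 56.5 against 78.2 and 87.8 in HIF1A-/- cells. The *HSPA1B* groups overlapped in both genotypes and those of *HSPH1* in neither. *BAG3* had 33.8 and 47.98 in normoxia and 46.2 and 79.96 in hypoxia in WT cells, and 35.5 and 46.4 against 80.01 and 74.4 in HIF1A-/- cells, overlapping in WT cells only. *CHORDC1* had 27.6 and 39.1 in normoxia and 47.1 and 56.6 in hypoxia in WT cells, and 20.98 and 39.6 against 49.8 and 49.1 in HIF1A-/- cells. Its groups did not overlap in either genotype, and those of *AHSA1* overlapped in WT cells only, at 46.9 and 68.6 against 59.5 and 106.6, and in HIF1A-/- cells stood at 40.3 and 55.9 against 64.2 and 99.2.

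**Figure D4:**
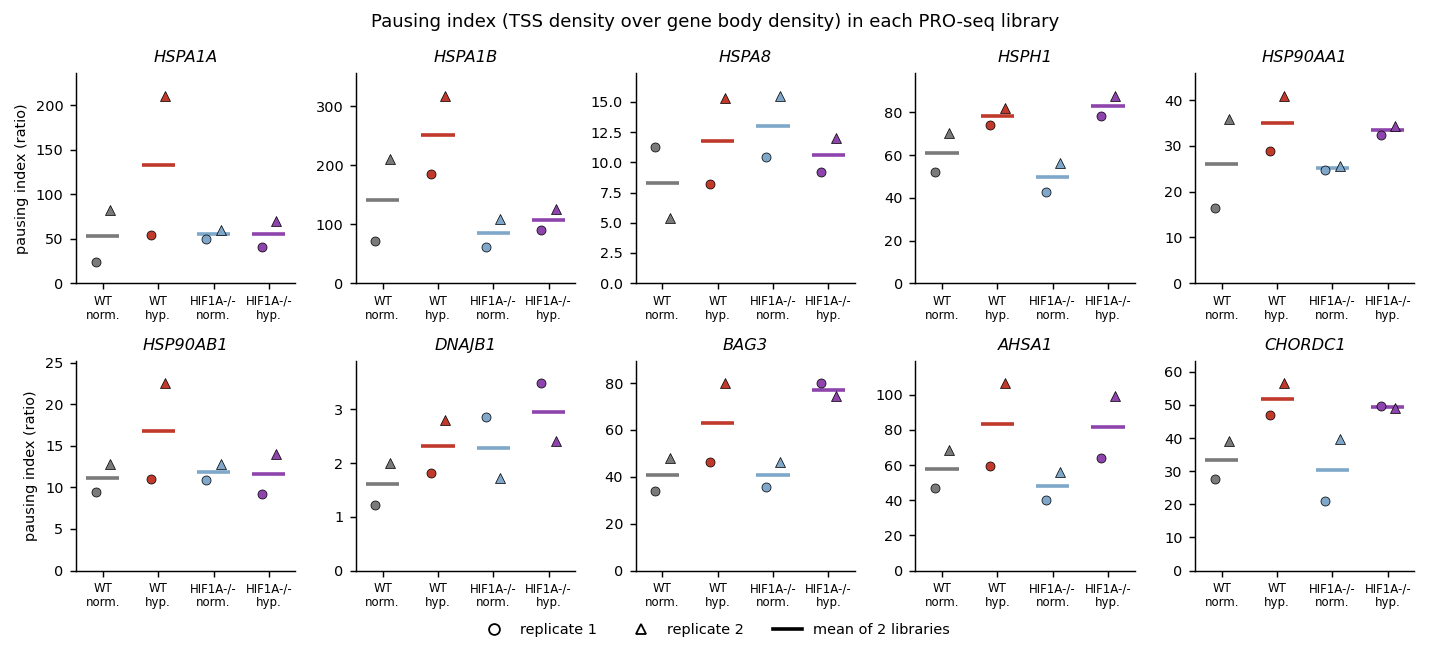
Pausing index of each gene, the density of TSS reads over that of gene body reads (ratio, linear axis from 0, a scale of its own per gene), in the 8 libraries. Circles are replicate 1, triangles replicate 2 and lines the mean of the 2 libraries of a group. For *HSPH1* and *CHORDC1* both hypoxia libraries stand above both normoxia libraries in each genotype. *HSP90AA1*, *BAG3* and *AHSA1* show such a step in HIF1A-/- cells only, and *HSPA1A*, *HSPA1B*, *HSPA8*, *HSP90AB1* and *DNAJB1* in neither genotype.

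The log2 changes of the index were 0.43 ± 0.25 and 0.78 ± 0.25 for *HSPH1* in WT and HIF1A-/- cells, 1.05 ± 0.45 and 0.41 ± 0.44 for *HSPA1B*, 0.66 ± 0.28 and 0.96 ± 0.28 for *BAG3*, 0.72 ± 0.29 and 0.79 ± 0.29 for *CHORDC1* and 0.55 ± 0.32 and 0.78 ± 0.32 for *AHSA1*. The constitutive genes had 0.58 ± 0.37 and -0.24 ± 0.37 for *HSPA8* and 0.58 ± 0.34 and -0.016 ± 0.34 for *HSP90AB1*. The median of the 10 was 0.61 in WT and 0.43 in HIF1A-/- cells, beside 0.0093 and 0.0022 over 14494 genes. Without the replicate term none passed in edgeR, beside 0.0069% of all genes called higher in WT and 0% in HIF1A-/- cells. An unadjusted p under 0.05 was reached by 3 genes in WT and by 4 in HIF1A-/- cells, all higher, beside 299 and 108 of the 14494 genes. With the term *HSPA1B* passed in WT cells (1.07 ± 0.23, adjusted p = 0.0676), beside 0.0621% of all genes, and none did in HIF1A-/- cells (0% of all genes), where the lowest adjusted p was 0.466. The index was higher in hypoxia in all 4 replicate pairs for 7 of the 10 genes (12% of all), and the hypoxia libraries lay above both normoxia libraries for 2 in WT cells (18.4%) and 5 in HIF1A-/- cells (12%). Since the index shares its gene body reads with the comparison above, it is not a separate measure of the same genes.

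The 2 genotypes were compared next, to ask whether these differences depend on HIF1A. The difference between the WT and HIF1A-/- hypoxia responses passed for none of the 10 genes in gene bodies, TSS regions or pausing by edgeR, without or with the replicate term. At an unadjusted p under 0.05 only 1 did, in pausing with the term. There, 254 differences above 0 and 310 below 0 reached that p among all 14494 genes. Of all features tested, 0.0539% of gene bodies, 0.00657% of TSS regions and 0.0207% of pausing values passed without the term, and 0.384%, 0.046% and 0.145% with it. In gene bodies the difference (WT minus HIF1A-/-) was largest for *HSPA1A*, at -1.60 ± 0.96, and *HSPA1B*, at -0.70 ± 0.76, and ran from -0.56 to 0.17 for the other 8. For *HSPH1* it was 0.11 ± 0.77 and with the replicate term 0.07 ± 0.31, an error that spans differences of either sign.

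Between the genotypes in normoxia, no gene body of the 10 passed (1.78% of all did, 10.3% with the replicate term), and none had an unadjusted p under 0.05 in edgeR or DESeq2. At that p by edgeR without the term, 654 of all 16686 gene bodies were higher and 848 lower in HIF1A-/- cells. With the term these counts were 1440 and 2045. The log2 differences (HIF1A-/- minus WT) ran from -0.62 ± 0.47 for *HSPA8* to 0.23 ± 0.39 for *CHORDC1*, with a median of 0.079. In hypoxia none passed without the term (4.26% of all gene bodies did), and 3 passed with it, all higher in HIF1A-/- cells, beside 28.2% of all gene bodies. These were *HSPA1B* (1.01 ± 0.26, adjusted p = 0.0327), *HSP90AA1* (0.37 ± 0.12, 0.0611) and *HSP90AB1* (0.27 ± 0.10, 0.0948), a share close to that of all gene bodies. DESeq2 with the term called *HSPA1B* and *HSP90AA1*, beside 23.2% of all gene bodies. For *HSPA1B*, the 2 HIF1A-/- hypoxia libraries, at 23.3 and 16.9 CPM, lay above the WT ones, at 15.1 and 6.14 CPM.

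At the TSS none of the 10 passed between the genotypes in normoxia (0.657% of all regions, 4.29% with the replicate term) or in hypoxia (1.1% and 14.4%). An unadjusted p under 0.05 was reached only once, in hypoxia with the term. There, 1854 of all 15212 TSS regions were higher and 1737 lower in HIF1A-/- cells at that p. In pausing none passed in normoxia (0.0759% of all genes, 0.683% with the term). In hypoxia none passed without the term (0.718%) and 1 did with it (6.55%). This was *HSPA1B*, whose index was lower in HIF1A-/- than in WT cells by a log2 difference of -1.20 ± 0.23 (adjusted p = 0.0103), against -1.18 ± 0.45 (adjusted p = 0.325) without the term.

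Most of the 10 genes varied together across the 8 libraries. The mean of their gene body log2 CPM, each gene centred on its own mean, was 0.72 and -0.07 in normoxia against -0.02 and -0.91 in hypoxia in WT cells, and 0.58 and 0.18 against -0.04 and -0.43 in HIF1A-/- cells. WT hypoxia replicate 2 was lowest, and replicate 2 in normoxia stood close to replicate 1 in hypoxia in WT cells. Pearson's r between 2 of the genes over the 8 libraries ranged from 0.27 to 0.99 with a median of 0.82 (45 pairs). *HSPH1* followed the mean of the other 9 most closely (r = 0.98) and *HSPA8* least (r = 0.48). These correlations include the shared replicate and oxygen differences and are a description.

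Outside the 10, the gene bodies with the highest correlation to their mean over the 8 libraries were *MANF* (r = 0.996), *PDIA4* (0.991), *NFATC3* (0.990), *FERMT3* (0.989) and *ST13* (0.9885). *MANF*, for example, had 45.1 and 29.02 CPM in normoxia and 31.6 and 19.3 CPM in hypoxia in WT cells, and 40.2 and 36.6 against 30.8 and 24.96 CPM in HIF1A-/- cells. The log2 fold changes of these 5 in hypoxia were between -0.78 and -0.36 in WT and between -0.74 and -0.33 in HIF1A-/- cells.

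Other genes of heat shock and chaperone networks, 38 by a list written from general knowledge with earlier results of these data known, had smaller differences of the same sign. The list holds heat shock factors, further HSP70, HSP40 and small heat shock genes, HSP70 and HSP90 co-chaperones, and a few chaperones of other compartments. Of its members 35 were tested in gene bodies, and 29 were below 0 in WT and 31 in HIF1A-/- cells, with medians of -0.23 and -0.25. None passed without the replicate term in either genotype, and 2 and 3 had an unadjusted p under 0.05, all of them lower. Among all 16686 gene bodies, 184 in WT and 172 in HIF1A-/- cells were lower at that p. With the term 8 passed as lower in WT cells and 0 in HIF1A-/- cells, beside 1.77% and 0.00599% of all gene bodies. The 5 of these 8 with the lowest p in the fit without the term were *FKBP4*, an HSP90 co-chaperone of steroid receptors (-0.86 ± 0.11, adjusted p = 0.00891), *STIP1*, which joins HSP70 to HSP90 (-0.63 ± 0.11, 0.0282), *ST13*, an HSP70 co-chaperone (-0.54 ± 0.11, 0.0474), *HSPA4*, a relative of *HSPH1* (-0.45 ± 0.10, 0.0604), and *SUGT1*, an HSP90 co-chaperone (-0.54 ± 0.12, 0.0686).

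**Figure D5:**
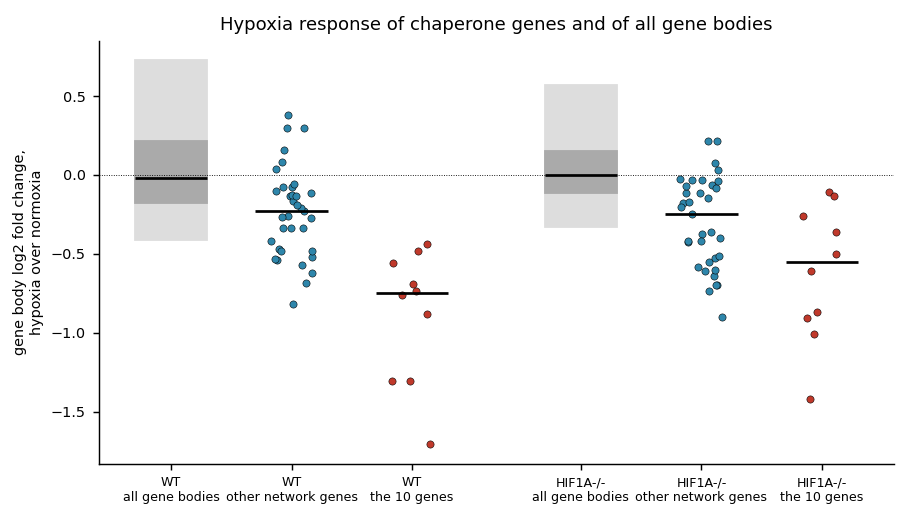
Gene body log2 fold change in hypoxia, without a replicate term, in WT cells (left) and HIF1A-/- cells (right). Grey boxes give the central 50% (dark) and 90% (light) of all gene bodies tested, blue points the 35 other network genes and red points the 10 genes, with black lines at the medians. The medians of the 10 genes, -0.75 and -0.55, lie below those of the other network genes, -0.23 and -0.25, and these below those of all gene bodies.

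*HSF1*, the factor behind the heat shock response, had 134.8 and 124 CPM in its gene body in normoxia against 126.5 and 98.9 CPM in hypoxia in WT cells, and 163 and 120.5 against 169 and 129 CPM in HIF1A-/- cells. Its log2 fold change in hypoxia was -0.23 ± 0.24 in WT and 0.03 ± 0.24 in HIF1A-/- cells. Between the genotypes 1 of the 35 tested genes of the list passed in both fits and at both oxygen levels, *FKBP5*, a glucocorticoid-inducible HSP90 co-chaperone. By edgeR without the replicate term it was lower in HIF1A-/- cells by -0.72 ± 0.15 in normoxia (adjusted p = 0.0935) and -0.66 ± 0.15 in hypoxia (adjusted p = 0.0766). Of all gene bodies, 1.78% in normoxia and 4.26% in hypoxia passed without the term, and 10.3% and 28.2% with it. With the replicate term *HSPB1*, a small heat shock protein (0.73 ± 0.15, adjusted p = 0.0153), *CDC37*, which brings kinases to HSP90 (0.50 ± 0.10, 0.0146), and *HSF1* (0.39 ± 0.11, 0.0370) passed as higher in HIF1A-/- cells in hypoxia and *PPID*, an HSP90-binding immunophilin (-0.52 ± 0.14, 0.0390), as lower, beside the 28.2% of all gene bodies that passed there. The comparisons in WT and HIF1A-/- cells use separate control libraries, while the genotype comparisons share libraries with them.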

How the data were processed

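PRO-seq libraries of HCT116 cells were analysed from 2 tables of raw read counts. Per the labels and the study's methods, the authors aligned single-end reads of 75 bases to GRCh37 (hg19) with HISAT2 2.1.0, kept alignments with a mapping quality above 10 with SAMtools 1.5, and made the deposited counts with Subread 1.6.2 featureCounts, keeping for each gene its most active TSS and 1 gene body. To choose each TSS the authors tabulated sense and antisense reads. Whether the deposited counts used strand is not given in the sources used here, so reads of antisense transcripts could be included.

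The members and gene lists were chosen with earlier results of these data known. Genes named outside the 10 were the 5 with the highest correlation to their mean and, from the network list, up to 5 per direction and comparison with the lowest p in the fit without the replicate block, among those past the threshold in either fit; the *HSF1* levels were added after their values were seen. Genes above 0.5 CPM in at least 2 libraries were tested with edgeR 4.0.16 (R 4.3.3, limma 3.58.1): TMM scaling, the 4 groups as means, quasi-likelihood F tests, Benjamini-Hochberg adjustment over all genes, FDR 10%. Pausing was the TSS-by-group term of a fit of 16 columns with 1 term per library. Samples that share a replicate number moved alike, in each of the 6 pairings of groups (r of deviations from group means 0.501 to 0.848 in gene bodies and 0.218 to 0.522 in TSS regions), so the number was also fitted as a block, and that value is printed beside results it changes. The fits were tested on simulated data, drawn with a preset spread and no shared replicate difference. Without the block, log2 changes of 1 in WT hypoxia were recovered at 53% in gene bodies, 31% in TSS regions and 7.61% in pausing. A gene that did not pass can thus still have changed. Alternatives were DESeq2 1.42.0, library totals in place of TMM, no filter, *HSPA1A* and *HSPA1B* summed, members left out, and each library left out. With 2 libraries per group the p-values measure the spread between these preparations. No fold rests on a level of 0 counts.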

Additional observations from a re-analysis of the deposited data

How the results depend on the processing

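With the replicate number as a block, 6 of the 10 gene bodies passed in WT hypoxia against normoxia in place of 0, 3 passed between the genotypes in hypoxia, and 1 gene passed in each of WT TSS, WT pausing and pausing between the genotypes in hypoxia. DESeq2 with the block gave 7 gene bodies in WT cells, 4 in HIF1A-/- cells and 2 between the genotypes in hypoxia, beside 2.13%, 0.587% and 23.2% of all gene bodies. At the TSS it called none of the 10 genes. The block changed the number of calls in no other comparison. Without a filter on low counts 1 gene passed in WT TSS, 1 in WT pausing and 1 in pausing between the genotypes in hypoxia, and 1 passed in the last with 1 library total for both regions. The cause was not tested. DESeq2 with the block and the medians without named genes were chosen after seeing the data. The gene body difference of *HSP90AB1* between the genotypes in hypoxia, called with the block, ran from -0.12 to 0.74 over the settings. Of 2020 recomputed values of single genes 442 moved by more than the SD of the replicate pairs.

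The median gene body difference in HIF1A-/- hypoxia, -0.55, was -0.56 with DESeq2, -0.56 with DESeq2 and the block, -0.56 with the block, -0.56 without the filter, -0.51 with library totals, -0.59 with *HSPA1A* and *HSPA1B* summed and -0.61 without *HSPA1A*; its replicate pairs happened to lie almost at the same value, so small shifts count as moves. The median of the genotype difference in response, -0.07, was 0.063 with the pair summed and 0.063 without *HSPA1A*. The TSS median in HIF1A-/- cells, -0.16, was -0.17 with the block, -0.17 with DESeq2 and the block, -0.20 with the pair summed and -0.22 without *HSP90AA1* and *DNAJB1*. The pausing median in WT cells, 0.61, was 0.58 with the pair summed, 0.55 with library totals, 0.62 without *HSP90AA1* and *DNAJB1* and 0.78 with 1 library total for both regions. In HIF1A-/- cells, 0.43, it was 0.59 without these genes and 0.54 with 1 total, and between the genotypes 1 total gave -0.37 in normoxia and -0.56 in hypoxia.

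Leaving out each library in turn called none of the 10 genes anywhere, the lone library of a group then being assumed to vary like the other groups. The gene body medians ran from -1.39 to -0.27 in WT hypoxia, -0.70 to -0.45 in HIF1A-/- hypoxia, -0.65 to 0.37 for the difference between these, -0.25 to 0.54 between genotypes in normoxia and -0.31 to 0.77 in hypoxia. TSS medians ran from -0.23 to -0.037, -0.22 to -0.044, -0.13 to 0.22, -0.04 to 0.22 and -0.033 to 0.14 in the same order, and pausing medians from 0.27 to 1.03, 0.35 to 0.67, -0.27 to 0.46, -0.47 to 0.26 and -0.41 to 0.20. The WT gene body median without WT normoxia replicate 1 was -0.27, and without WT hypoxia replicate 1 it was -1.39. Depth limits *HSPA1A*, with 4 to 28 gene body reads per library, most.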
